A study of Rattus norvegicus with 9 samples.

Results

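The genes described here encode the nuclear subunits of the mitochondrial respiratory chain and of ATP synthase, with some of their assembly factors. They were taken as all genes whose current rat symbol begins with Nduf (complex I), with Sdh followed by a, b, c or d (complex II), with Uqcr (complex III), with Cox followed by 4, 5, 6, 7 or 8 (complex IV), or with Atp5 (complex V, ATP synthase). Of 122 protein-coding rat genes with such a symbol, 83 had a probe on the array, and the pseudogene Cox6c-ps1 brought the number to 84 of 15168 genes with a probe. These were 38 genes of complex I, 6 of complex II, 8 of complex III, 17 of complex IV and 15 of complex V. The rule used no measured value.

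Bladder RNA from female rats had been labelled with Cy3 and hybridised to 9 single-colour arrays, 3 in each of 3 groups at 3 weeks. The groups were sham-operated rats whose urethra was not tied, rats with partial bladder outlet obstruction (pBOO), produced by a ligature around urethra and catheter together, and pBOO rats treated with tolterodine, an antagonist of muscarinic acetylcholine receptors. The last group is called tolterodine below, and its rats carried the obstruction too. Strain, age and dose were not given in the sources used here. Per group, 5 bladders were examined according to the protocol, for 3 arrays. Nothing in the labels says whether an array carried RNA of 1 rat or of a pool, so the p-values measure the spread between these arrays, which may be technical. The treatment protocol gives the sham and obstructed rats each other's code letters compared with the array titles. Groups follow the titles, and so does every direction stated here. The study asked how β-adrenoceptor signalling bears on matrix deposition by bladder muscle, and set the obstructed rat bladder beside cultured cells that were not analysed here.

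Complexes I and II pass electrons from NADH and succinate to ubiquinone, complex III passes them on to cytochrome c, and complex IV passes them to oxygen. Complexes I, III and IV pump protons across the inner membrane while doing so, and complex V uses the return of these protons to make ATP. Most subunits are encoded in the nucleus and a few in mitochondrial DNA, and several subunits of complex IV exist as isoforms that differ between tissues. In the bladder wall, contraction of the detrusor muscle draws on this ATP.

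A level below is the log2 of a gene's processed signal minus the 75th percentile of its array on the same scale, so a level of 0 is that percentile. A change is the difference of 2 group means of such levels (log2 fold change) with the standard error (SE) of a limma fit across all genes. A gene was called lower or higher where its Benjamini-Hochberg adjusted p, taken over 11047 genes, was under 0.05. Over the 9 arrays the 75th percentile lay between 523 and 1441 units of intensity. The share of spots well above background lay between 72.1% and 80.2%, and 0 spots were saturated. The probes of these genes were bright, with a median at percentile 95.2 of all tested genes by mean level. Spots that the image software had marked as non-uniform or outlying, for the spot or its local background, were removed. This left 70 of the 84 genes for testing, 52 of them with a value on all 9 arrays. A further 12 were lost to such marks, and Cox8b and Cox8c were too dim. For Atp5mc2, Ndufa10l1, Uqcr11 and Uqcrb a dimmer probe stood in for a brighter one that was lost. The arrays had been read in 3 scans. Scan 1 held sham 2, sham 3, tolterodine 1 and tolterodine 2, scan 2 held sham 1 and the 3 pBOO arrays, and scan 3 held tolterodine 3 alone. No scan held both pBOO and tolterodine arrays.

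In the pBOO bladders, 35 of the 70 genes were lower than in sham bladders (50%), and 1 was higher, Cox6b2. Among all 11047 genes, 21.7% were lower and 20.8% higher. The changes of 65 of the 70 genes were below 0, and the median log2 fold change was -0.39, against -0.04 over all genes. In 54 of the 70 genes every pBOO array lay below every sham array, which held for 29.8% of all genes, and in 1 gene every pBOO array lay above, which held for 26% of all genes. Complexes I, III, IV and V each had called members, with 17 of 36, 3 of 6, 9 of 13 and 6 of 12 lower. Their medians were -0.40, -0.18, -0.48 and -0.39. The complex I count takes in assembly factors. Without any assembly factors, 32 of 63 genes were lower, with a median of -0.40. The complex IV count takes in the pseudogene Cox6c-ps1, which was called lower in 11 of 23 alternatives. The complex III values include the stand-in probes of Uqcrb and Uqcr11. Without stand-in probes, 3 of 4 complex III genes were lower, with a median of -0.39. With marked spots kept it was 6 of 8, with a median of -0.44. Complex II had 0 of 3 called by limma, with 1 at an unadjusted p under 0.05, and a median of -0.28. These 3 include the assembly factor Sdhaf2, and the 2 subunits, Sdha and Sdhd, had a median of -0.26. With marked spots kept, 3 of 4 complex II subunits were lower, with a median of -0.35, where 22.9% of all genes were lower. With quantile scaling, which gives all arrays the same distribution of signals, 8 of the 70 genes were lower and 2 higher. The median was then -0.11, while 21.4% of all genes were lower. Normexp background correction left 23 lower, and scan as a fixed term in the fit gave 36. Without sham 3, pBOO 2 or pBOO 3 in turn, 19, 18 and 19 were lower. Among the 2210 genes in the top 20% by level, which held 58 of the 70, the median change was -0.27 and 36.9% were lower. Of those 58, 31 were lower, with a median of -0.40. The median level of the 70, at percentile 95.2, lies in the upper part of that set. The part of signal brightness in these counts was not tested beyond these values. In RNA of a whole tissue, fewer cells of a type and less RNA per cell cannot be told apart.

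**Figure D1:**
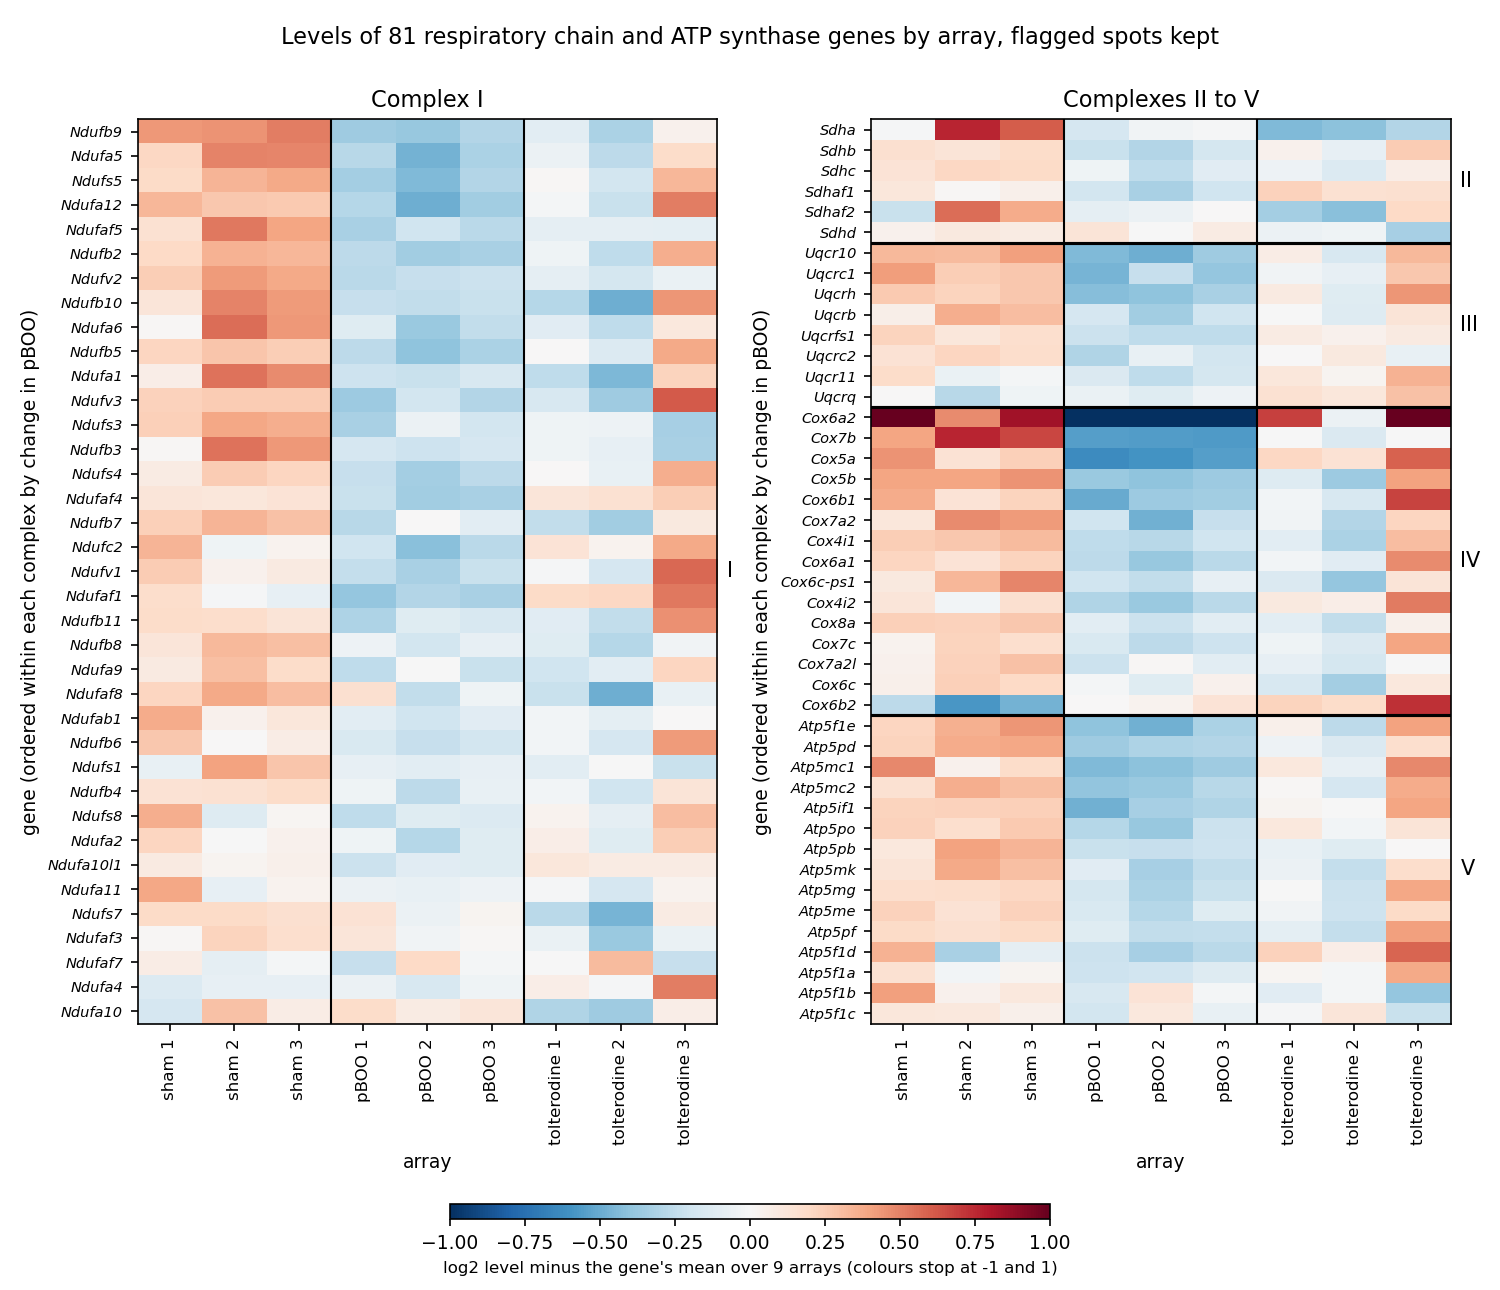
Heat map of the log2 level of 81 genes on each of the 9 arrays, minus the gene's mean over the arrays, with marked (in the title, flagged) spots kept so that the 12 genes lost to marks can be seen. Columns are arrays in their 3 groups, rows are genes grouped by complex, red is above and blue below the gene's mean. The 3 pBOO columns are blue for most genes, Cox6a2 goes beyond the colour range, and tolterodine 3 is redder than the other tolterodine arrays.

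Within complex I, 12 of 22 accessory subunits were lower in pBOO (median log2 fold change -0.44), against 21.7% of all genes. Of 7 core subunits 2 were lower (-0.31), a share near that of all genes. Ndufb9, an accessory subunit of the membrane arm, fell most. Its log2 level was 4.69, 4.72 and 4.76 on the sham arrays, 3.91, 3.87 and 3.96 on the pBOO arrays and 4.15, 3.94 and 4.30 on the tolterodine arrays. The sham arrays stood well above the rest, and the pBOO and tolterodine arrays overlapped. Its log2 fold change in pBOO was -0.81 (SE 0.12, adjusted p = 0.000783), and it was called in all 23 alternatives that tested it. Ndufa12, another accessory subunit, had levels of 2.73, 2.66 and 2.65 in sham, 2.11, 1.90 and 2.05 in pBOO and 2.38, 2.17 and 2.90 in tolterodine. The pBOO arrays were below all others, and the log2 fold change was -0.66 (SE 0.18, adjusted p = 0.016).

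The core subunits of complex I that are encoded in the nucleus belong to the part that holds its flavin and iron-sulfur centres. Ndufv2, of the NADH-oxidising part, fell by 0.59 on the log2 scale (SE 0.10, adjusted p = 0.00174). Ndufs3, of the part that leads to ubiquinone, fell by 0.52 (SE 0.13, adjusted p = 0.0103). Ndufv1, which binds NADH and the flavin, had a log2 fold change of -0.39 (SE 0.18) that missed the threshold at an adjusted p of 0.117. For Ndufs1 the value was -0.29 (SE 0.14, adjusted p = 0.116). Among assembly factors with an Nduf or Sdh symbol, 3 of 7 were lower, where 21.7% of all genes were. Ndufaf5, which acts early in complex I assembly, was the lowest of them at -0.63 (SE 0.12, adjusted p = 0.00342). Ndufa10 was the 1 complex I gene with a change above 0, at 0.06 (SE 0.16).

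In complex II, whose subunits also belong to the citric acid cycle, Sdha, the flavoprotein that oxidises succinate, was at 2.37, 3.13 and 2.98 in sham and 2.21, 2.34 and 2.36 in pBOO. Sham 1, the sham array read in the same scan as the pBOO arrays, lay close to them, and the change of -0.52 (SE 0.20) had an adjusted p of 0.0643. Sdhd, a membrane anchor, had a log2 fold change of -0.00 (SE 0.11). Sdhb, the iron-sulfur subunit, was measured only with marked spots kept, where its log2 fold change was -0.39 (SE 0.11, adjusted p = 0.0225). With scan as a fixed term in the fit, the complex II median was 0.03.

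In complex III, Uqcrc1 and Uqcrc2, the large core proteins, and Uqcrfs1, the Rieske iron-sulfur protein, were lower. Uqcrc1 was at 2.37, 2.20 and 2.22 in sham, at 1.48 and 1.72 on the 2 pBOO arrays with a value, and at 1.91, 1.87 and 2.22 in tolterodine. Its pBOO levels were the lowest, its tolterodine levels reached into the sham range, and the change in pBOO was -0.66 (SE 0.15, adjusted p = 0.0107). Uqcrfs1 differed little within groups, at 2.53, 2.42 and 2.48 in sham against 2.09, 2.06 and 2.06 in pBOO, a log2 fold change of -0.41 (SE 0.09, adjusted p = 0.00753). Uqcrb, a small subunit near the ubiquinone site, was tested through a dim probe at a mean level of -2.19, because its bright probe was lost to marks. The dim probe gave 0.34 (SE 0.17) in pBOO, while the bright probe, with marked spots kept, gave -0.48 (SE 0.12, adjusted p = 0.0138).

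Complex IV held the largest fall of all. Cox6a2, the isoform of subunit VIa found in heart and skeletal muscle, was at 1.28, 0.26 and 0.62 in sham, at -1.87, -1.73 and -1.81 in pBOO and at 0.46, -0.28 and 1.08 in tolterodine. The pBOO arrays formed a tight group far below the other 6, which overlapped each other and spread over more than 1 log2 unit in both groups. Its mean was 0.72 ± 0.52 (SD, n = 3) in sham and -1.80 ± 0.07 (SD, n = 3) in pBOO, a log2 fold change of -2.52 (SE 0.35, adjusted p = 0.000655), or 5.74-fold lower. Markers of skeletal muscle were measured beside it. Of 7, 3 were higher and 2 lower in pBOO, where 20.8% of all genes were higher and 21.7% lower. Their mean level ran from -1.48 to -0.95 in sham and from -0.73 to -0.55 in pBOO, and Myh1, Myh4 and Myl1 were too dim to test. In tolterodine against pBOO, 4 of the 7 were lower and 1 higher, where 15.3% of all genes were lower and 26% higher. The part of these markers in the Cox6a2 result was not tested.

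Cox7b, a small structural subunit, was at 3.21, 3.59 and 3.49 in sham, 2.26, 2.26 and 2.25 in pBOO and 2.83, 2.68 and 2.81 in tolterodine. The 3 groups were fully apart, with tolterodine between the others. The change in pBOO was -1.17 (SE 0.12, adjusted p = 0.000165). Cox5a, a matrix-side subunit, was at 4.56, 4.26 and 4.35 in sham and 3.48, 3.51 and 3.56 in pBOO, a log2 fold change of -0.87 (SE 0.14, adjusted p = 0.00206). Its neighbour in the complex Cox5b fell by 0.79 (SE 0.17, adjusted p = 0.0109, with 2 pBOO arrays). Cox6a2, Cox7b, Cox5a and Ndufb9 were the 4 of the 35 lower genes called in every alternative that tested them, quantile scaling included. Cox5a was tested in 21 alternatives, and the others in 23 each, which took in every left-out array.

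Cox6b2, the isoform of subunit VIb known from testis, went the other way, at 1.55, 1.23 and 1.34 in sham, 1.82, 1.85 and 1.95 in pBOO and 2.04, 1.99 and 2.54 in tolterodine. The sham arrays were lowest and the tolterodine arrays highest, with no overlap between any of the groups. Its change in pBOO was 0.50 (SE 0.16, adjusted p = 0.0366), and this call was lost in 11 of 23 alternatives. Cox6b1, the isoform of most tissues, fell by 0.65 (SE 0.18, adjusted p = 0.0241). Of the remaining isoforms, Cox7a2 was lower (-0.64, SE 0.15) and so were Cox8a (-0.37, SE 0.11) and the oxygen-responsive Cox4i2 (-0.40, SE 0.14, adjusted p = 0.0465). The Cox4i2 call was lost in 12 of 23 alternatives, among them each left-out sham or pBOO array. With quantile scaling the Cox8a change turned to 0.16. Cox7a2l, which helps to join complexes III and IV, had -0.29 (SE 0.12, adjusted p = 0.0708). With marked spots kept, Cox4i1 and Cox6a1, the widespread isoforms of subunits IV and VIa, fell by 0.52 (SE 0.15) and 0.49 (SE 0.15). Cox7a1 was not analysed here.

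**Figure D2:**
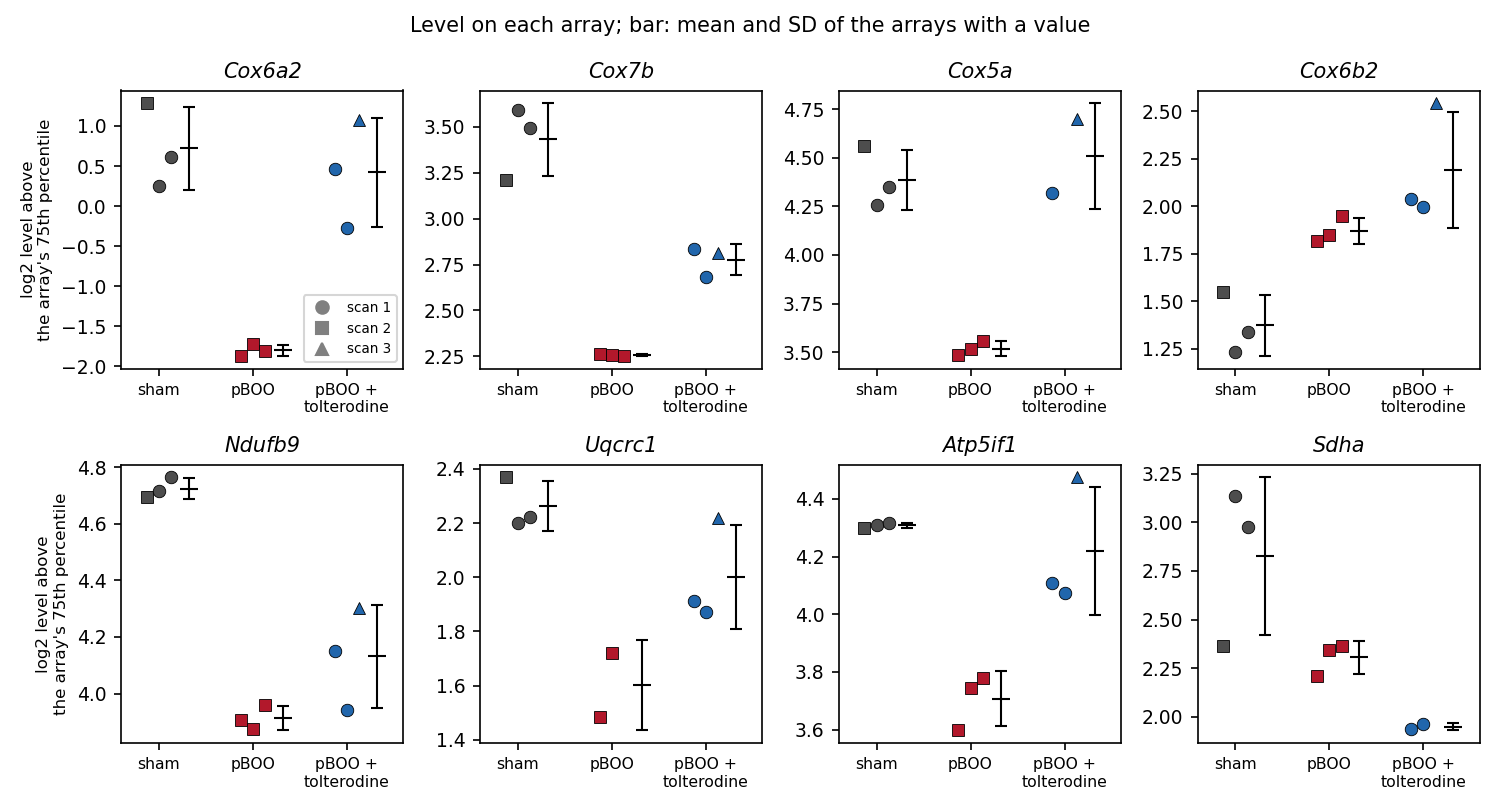
Log2 level relative to the array's 75th percentile on each array for 8 genes, by group, with the symbol giving the scan and the bar the mean and SD of the arrays with a value. Axes differ between panels. Cox6a2, Cox7b and Cox5a lie lowest on the 3 pBOO arrays, Cox6b2 is lowest in sham, and Sdha is lowest on the 2 tolterodine arrays with a value.

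In complex V, 6 of 12 genes were lower in pBOO. Of 8 genes for the membrane part and peripheral stalk, 5 were lower in pBOO (median -0.44), against 21.7% of all genes. The F1 part here takes in the catalytic head and the central stalk. Of its 3 tested genes 0 were called by limma, and 0 had an unadjusted p under 0.05. Among them only Atp5f1b belongs to the catalytic head. Atp5mc1, which encodes the rotor ring subunit c, was at 3.88, 3.44 and 3.59 in sham and 2.96, 2.99 and 3.05 in pBOO. The groups did not overlap, and the change was -0.64 (SE 0.17, adjusted p = 0.0147). Atp5pd, a stalk subunit, fell by 0.63 (SE 0.16, adjusted p = 0.023), with 2 arrays in each group. Atp5if1, a protein that inhibits ATP hydrolysis by the enzyme, was at 4.30, 4.31 and 4.32 in sham and 3.60, 3.74 and 3.78 in pBOO. Its sham levels were nearly equal, and it fell by 0.60 (SE 0.13, adjusted p = 0.00603). Atp5f1b, the catalytic β subunit, had -0.19 (SE 0.15, adjusted p = 0.323). Its partner Atp5f1a, with marked spots kept, had -0.22 (SE 0.13, adjusted p = 0.191). Atp5f1e, the small ε subunit of the central stalk, fell by 0.74 there (SE 0.17, adjusted p = 0.00704). In that setting 1 of 5 genes of the F1 part was lower. The membrane part and the F1 part were not tested against each other. With quantile scaling the complex V median was 0.07 and 0 of 12 genes were called by limma in either direction.

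**Figure D3:**
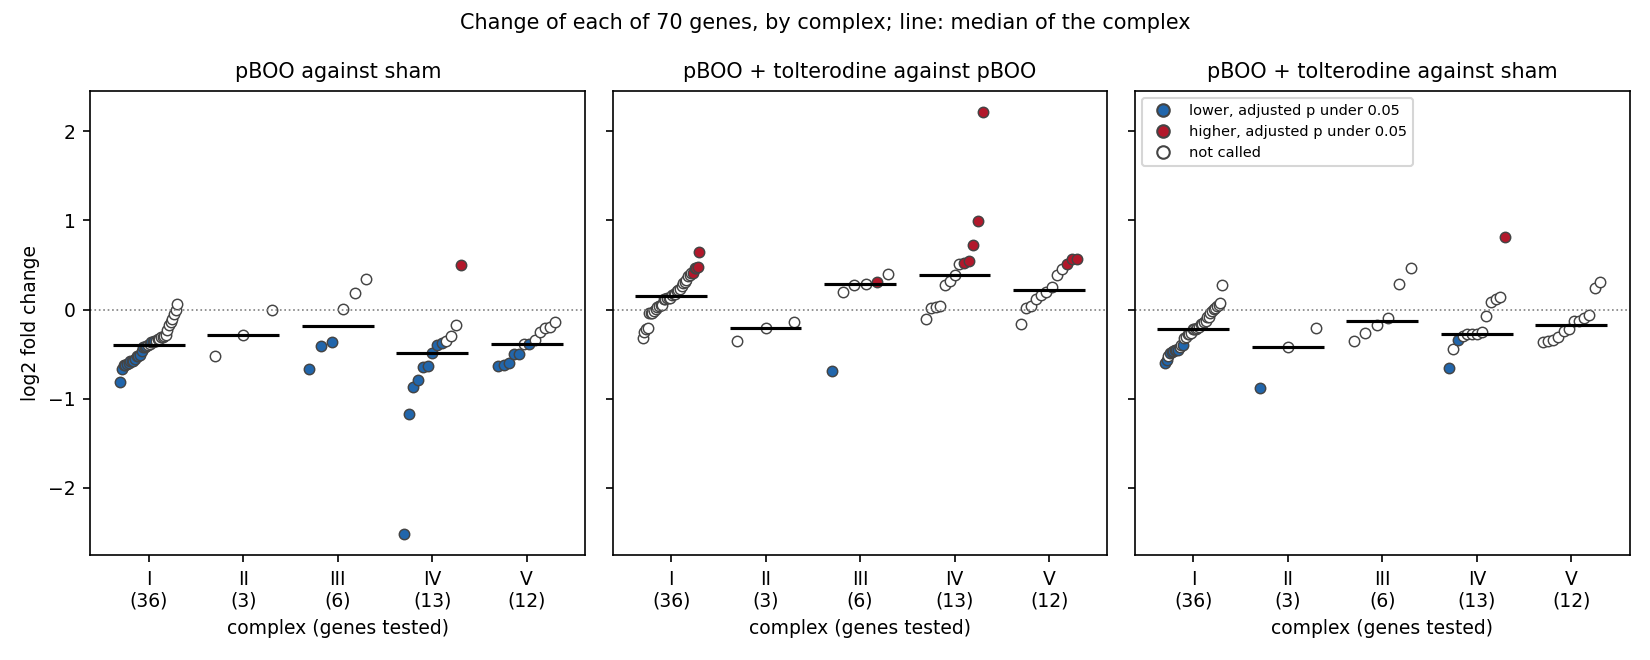
Log2 fold change of each of the 70 tested genes in the 3 comparisons, by complex, with the number of genes tested under each complex and a line at the median. Filled points are called lower (blue) or higher (red) at an adjusted p under 0.05. In pBOO against sham most points lie below 0, and Cox6a2 is the lowest at -2.52; with quantile scaling the complex V median is 0.07.

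The 12 genes lost to marks had bright probes, between percentiles 84.5 and 99.2 by level, and all their marks concerned the local background rather than the spot. With marked spots kept, 49 of 82 genes were lower in pBOO and 1 was higher, with a median of -0.41, while 22.9% of all genes were lower. By complex, 18 of 38, 4 of 6, 6 of 8, 11 of 15 and 10 of 15 genes of complexes I to V were lower. Of the 12 regained genes, Uqcr10 of complex III had the lowest change (-0.78, SE 0.13). Ndufa5 of complex I (-0.75, SE 0.15) and Atp5f1e came next. Ndufa4, named for complex I and now assigned to complex IV, was at 0.01 (SE 0.14). Several probes of 1 gene did not always give the same answer. Of 14 genes with more than 1 usable probe, 4 had probes of opposite sign in pBOO against sham, and for Ndufs4 probes were called in opposite directions, at -0.46 and 1.82, and the mean of the probes gave 0.68.

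With tolterodine, 13 of the 70 genes were higher than in pBOO and 1 was lower, where 26% of all genes were higher and 15.3% lower. The share of members called higher, 18.6%, was thus not above that of all genes, and their median log2 fold change was 0.20 against 0.11. Among the 2210 brightest genes 27.9% were higher and the median was 0.17, and of the 58 members among them 10 were higher, with a median of 0.20. The pBOO arrays entered this comparison and the first, so a gene that was low on them tends to fall in the one and rise in the other. By complex, 4 of 36 genes of complex I, 1 of 6 of complex III, 5 of 13 of complex IV and 3 of 12 of complex V were higher. Complex II had 0 of 3 called by limma, and 0 at an unadjusted p under 0.05. With quantile scaling 7 were higher and 8 lower, and the median turned to -0.048. Without tolterodine 3, the array alone in its scan, 8 were higher and 3 lower with a median of 0.10. Without tolterodine 2, 16 were higher and 1 lower with a median of 0.30. With scan as a fixed term, 10 were higher and 6 lower and the median was 0.06. Without tolterodine 1, pBOO 2 or pBOO 3 in turn, 7 were higher, and without sham 1, 16 were higher and 2 lower.

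Cox6a2 again had the largest change, 2.22 (SE 0.35, adjusted p = 0.00127), or 4.66-fold higher than in pBOO. Cox5a, at 4.32 and 4.70 on the 2 tolterodine arrays with a value, was 0.99 higher on the log2 scale (SE 0.16, adjusted p = 0.00197), and both values lay within or above the sham range. Ndufaf1, an assembly factor of complex I, was at -2.36, -2.34 and -2.02 in tolterodine against -2.93, -2.84 and -2.87 in pBOO. All its tolterodine arrays were above all pBOO and sham arrays, and the change was 0.64 (SE 0.13, adjusted p = 0.00433). Cox6a2, Cox5a, Ndufaf1 and Ndufaf4 were the 4 of the 13 genes called in every alternative that tested them.

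Among the other genes higher with tolterodine were Cox6b1 (0.73, SE 0.21), Atp5mc1 (0.57, SE 0.17), Atp5f1d of the F1 part (0.56, SE 0.19) and Cox4i2 (0.54, SE 0.14). Ndufc2, an accessory subunit of complex I, was 0.48 higher (SE 0.14, adjusted p = 0.0258). Cox7b was 0.52 higher (SE 0.12, adjusted p = 0.00929) and Atp5if1 0.51 higher (SE 0.13, adjusted p = 0.0129). The core subunits of complex I had 0 of 7 called by limma and 0 at an unadjusted p under 0.05. In complex III, Uqcrfs1 was 0.31 higher (SE 0.09, adjusted p = 0.0249). The gene called lower was Uqcrb, through the dim probe, at -0.69 (SE 0.17, adjusted p = 0.0118). Its bright probe gave 0.24 (SE 0.12) with marked spots kept, where 21 of 82 genes were higher and 0 lower by limma, 0 also at an unadjusted p under 0.05.

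Against sham, the tolterodine group had 11 of 70 genes lower and 1 higher, where 6.58% of all genes were lower and 17.8% higher. The changes of 56 genes were below 0, with a median of -0.22 against 0.09 over all genes. Among the 2210 genes in the top 20% by level, 10.8% were lower and 8.33% higher, and the median was -0.06. The 58 members among them had 10 lower and 1 higher, with a median of -0.23. Complex I held 8 of the 11, complex IV held Cox7b and Cox8a, and complex II held Sdha. The Cox8a call was lost in 13 of 23 alternatives, and the Sdha call in 4, among them without sham 2 and without sham 3. Complex III had 0 called by limma, with 2 genes higher at an unadjusted p under 0.05, and complex V had 0, with 3 genes lower at that p. Sdha was at 1.94 and 1.96 on the 2 tolterodine arrays with a value, below all sham and pBOO arrays, a log2 fold change of -0.88 (SE 0.22, adjusted p = 0.025). Cox7b was lower here too, at -0.65 (SE 0.12, adjusted p = 0.00666), and so was Ndufb9 at -0.59 (SE 0.12, adjusted p = 0.0079). Ndufaf8, an assembly factor of complex I, was at -0.56 (SE 0.15, adjusted p = 0.026). Cox6b2 was higher by 0.82 (SE 0.16, adjusted p = 0.00877). Cox6a2 had -0.30 (SE 0.35, adjusted p = 0.56), and its arrays overlapped those of sham.

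The count against sham moved with the arrays and scans used. Within scan 1, where sham 2 and 3 met tolterodine 1 and 2, 36 of 65 genes were lower and the median was -0.33, and without tolterodine 3 it was 20 genes and -0.32. With scan as a fixed term 35 genes were lower, and with scan as a random term 28. Without sham 1 it was 18, without sham 2 or sham 3 it was 3 and 2, without pBOO 3 it was 5, and without tolterodine 1 or 2 it was 3 and 2. With normexp background correction 4 were lower and with quantile scaling 5, while scaling to the array median gave 22. Cox7b, Ndufb9 and Cox6b2 kept their calls in all 23 alternatives that tested them.

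**Figure D4:**
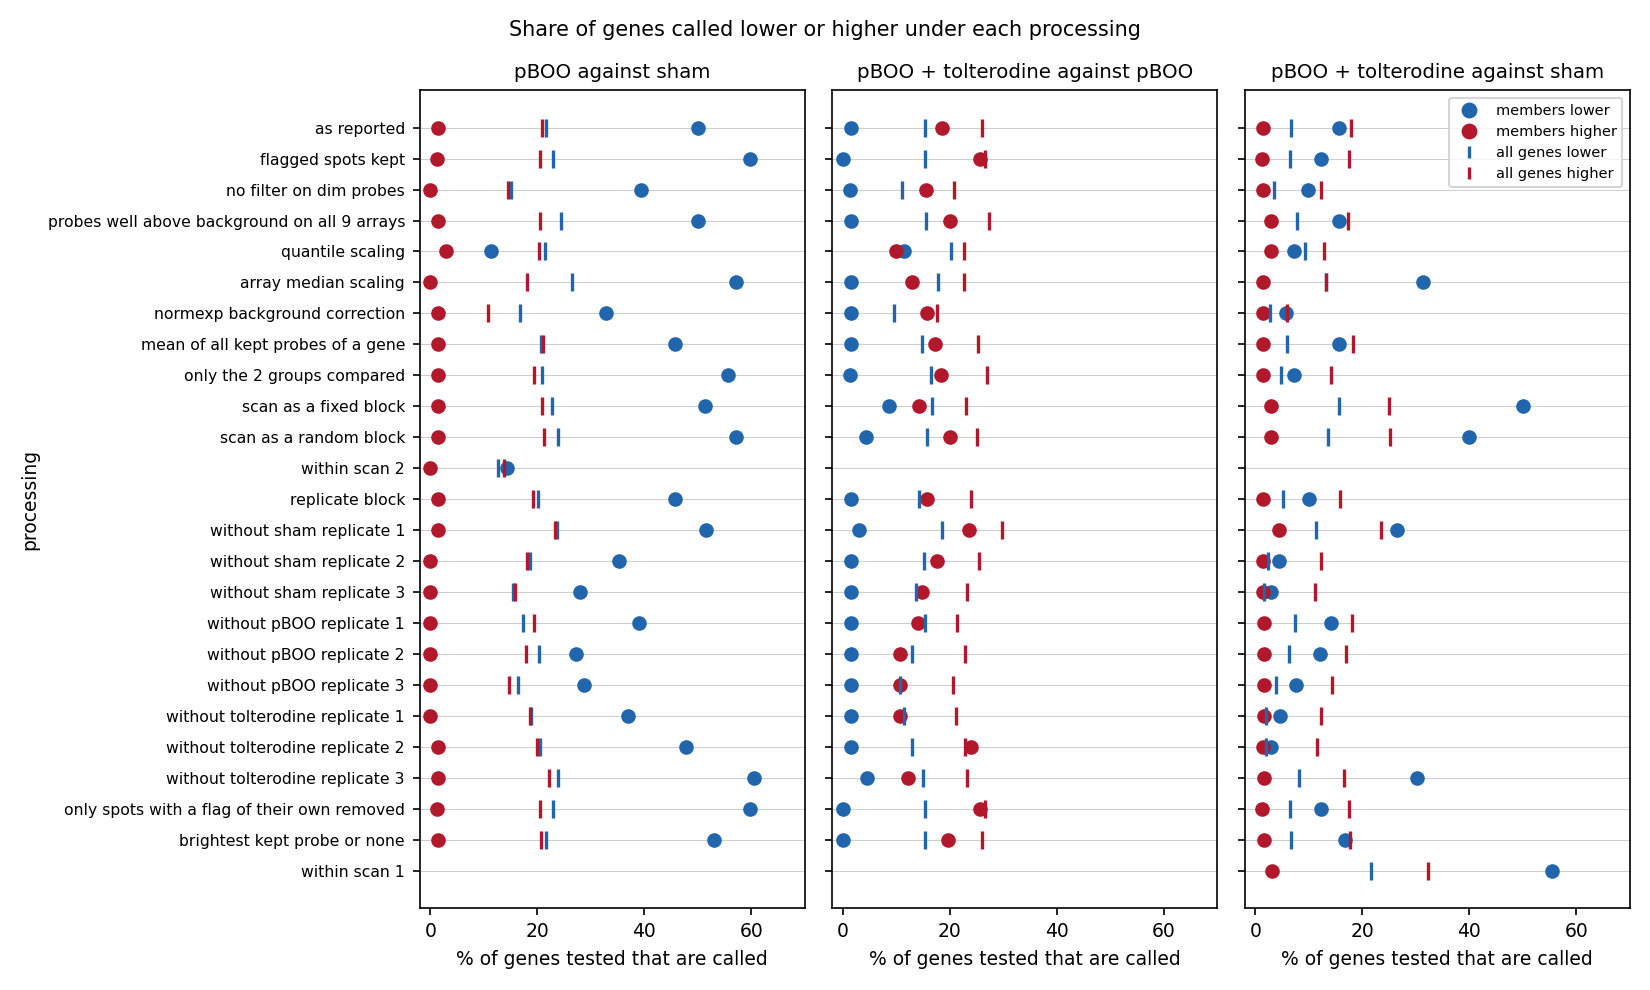
Share of the tested genes called lower (blue) or higher (red) in each comparison under each processing, in percent of the genes tested there. Circles are the respiratory chain and ATP synthase genes and bars are all genes. As reported, 50% of the members and 21.7% of all genes were lower in pBOO, and quantile scaling brings the members' circle below the bar.

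The pBOO arrays differed less among themselves than the tolterodine arrays did. The median range of a gene over the 3 arrays was 0.21 log2 units in sham, 0.13 in pBOO and 0.36 in tolterodine, against 0.37, 0.30 and 0.32 over all genes. After centring each gene on its mean over the arrays, the median of the genes with a value on all 9 was 0.15, 0.24 and 0.21 on the sham arrays, -0.21, -0.23 and -0.19 on the pBOO arrays, and -0.05, -0.14 and 0.12 on the tolterodine arrays. Every sham median was above 0 and every pBOO median below it, and tolterodine 3 lay nearer to sham than tolterodine 1 and 2 did. The same medians over all genes were between -0.14 and 0.11. Sham 1, read together with the pBOO arrays, was the highest sham array for 25 genes and the lowest for 33 of 64. Within scan 2, where sham 1 stood alone against the 3 pBOO arrays and was assumed to vary as they did, 10 of 70 genes were lower with a median of -0.38.

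**Figure D5:**
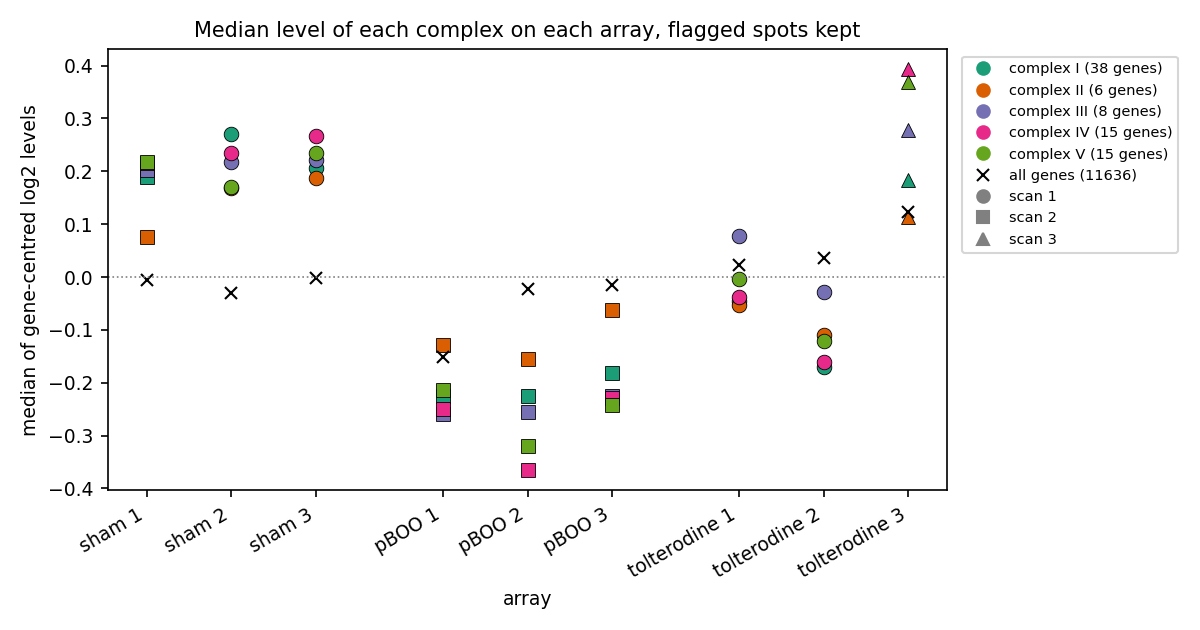
Median of the gene-centred log2 levels of each complex on each array, with marked spots kept, and the same over all genes as crosses. Colour gives the complex and shape the scan. All 5 complexes are above 0 in sham and below 0 in pBOO, tolterodine 1 and 2 lie between -0.17 and 0.08, and tolterodine 3 is above 0 for every complex. With marked spots removed, complex II, then with 2 genes, is at -0.09 on sham 1, at 0.02 and 0.04 on pBOO 1 and 3 and at -0.06 on tolterodine 3. Levels are relative to the 75th percentile, and with quantile scaling the complex V median in pBOO against sham is 0.07.

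Other mitochondrial genes are set beside these from lists chosen with earlier results in view. Over all genes, 21.7% were lower and 20.8% higher in pBOO against sham. In pBOO against sham, 23 of 39 genes of the large subunit of the mitochondrial ribosome were lower and 0 higher (1 at an unadjusted p under 0.05, limma), with a median of -0.58. For the small subunit 12 of 23 were lower, with a median of -0.46. Quantile scaling left 22 of 39 and 10 of 23 lower, which for the respiratory chain genes had left 8 of 70. Mrpl18 of the large subunit fell by 0.97 (SE 0.15) and Mrps33 of the small subunit by 0.82 (SE 0.12). Of 31 assembly factors with other symbols, 15 were lower and 3 higher (median -0.43), and Cox17, which brings copper to complex IV, fell by 0.99 (SE 0.19).

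The lists of pathways that feed the chain are read against the 21.7% of all genes that were lower and the 20.8% that were higher. In fatty acid oxidation 8 of 18 genes were lower, with Etfb, which passes electrons on from acyl-CoA dehydrogenases, at -0.74 (SE 0.13), and Cpt1b, which brings fatty acids into mitochondria, was higher at 0.95 (SE 0.11). In the citric acid cycle and pyruvate dehydrogenase 5 of 21 were lower, Idh3g at -0.74 (SE 0.13), and 3 higher, near the shares over all genes. One of the higher genes was Pdk4, an inhibitor of pyruvate dehydrogenase, not well above background in sham and at least 1.5-fold higher in pBOO (adjusted p = 2.95e-05). Of 14 genes for cytochrome c and coenzyme Q, 1 was lower and 1 higher (median -0.29). Of 17 glycolysis genes 5 were higher and 3 lower, also near those shares. The lactate transporter Slc16a1 rose by 1.78 (SE 0.21), and Ldhb fell by 0.77 (SE 0.24).

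Among 19 regulators of mitochondrial biogenesis, 7 were lower and 4 higher in pBOO, the latter near the 20.8% of all genes. Ppargc1a, a coactivator of this programme, was not well above background in sham or tolterodine, and was at least 1.03-fold higher in pBOO than in sham (adjusted p = 3.06e-05). Polg, the polymerase of mitochondrial DNA, fell by 1.35 (SE 0.21, adjusted p = 0.00127). With tolterodine against pBOO, 20 of 39 and 7 of 23 ribosome genes of the large and small subunits were higher, where 26% of all genes were, so the small subunit's count is near that share. Their medians were 0.39 and 0.26. Of the 19 regulators, 6 were higher and 3 lower there, near the 26% and 15.3% of all genes. Polg was 1.63 higher (SE 0.21), and Ppargc1a was at least 1.17-fold lower (adjusted p = 1.85e-05). The 13 subunits encoded in mitochondrial DNA were not analysed here.

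Cell type markers moved between the same groups, and their part in the values above was not tested. Mean levels of a list are over its measured genes with marked spots kept. Among all genes tested, 20.8% were higher and 21.7% lower in pBOO against sham. In tolterodine against pBOO these shares were 26% and 15.3%, and in tolterodine against sham 17.8% and 6.58%. The lists are short, so a count such as 3 of 7 lies only a few genes above these shares. In pBOO against sham, 7 of 8 smooth muscle markers were higher and 0 lower by limma, 0 also at an unadjusted p under 0.05 (median 1.97), and the mean level of the list was 2.82 to 3.09 in sham, 4.03 to 4.32 in pBOO and 3.04 to 3.44 in tolterodine. Macrophage markers were lower for 9 of 12 genes, with mean levels from 0.18 to 0.55 in sham, -0.46 to -0.40 in pBOO and 1.38 to 1.45 in tolterodine. Neutrophil markers were lower for 6 of 7, with -2.47 to -1.90 in sham, -4.41 to -4.00 in pBOO and -1.63 to -1.55 in tolterodine. Urothelial markers were lower for 3 of 7, with 4.28 to 4.67 in sham, 3.48 to 4.29 in pBOO and 3.38 to 3.69 in tolterodine. Endothelial markers were higher for 4 of 7. Fibroblast markers were higher for 3 of 7 and lower for 1, with mean levels of 1.43 to 1.57 in sham, 1.91 to 1.99 in pBOO and 2.30 to 2.47 in tolterodine, so that the 3 groups did not overlap. In tolterodine against pBOO, 7 of 8 smooth muscle markers were lower, 11 of 12 macrophage markers were higher and 7 of 7 neutrophil markers were higher. In tolterodine against sham, 10 of 12 macrophage and 5 of 7 fibroblast markers were higher, and 4 of 7 urothelial markers were lower. These counts are with marked spots removed. With marked spots kept, 8 of 11 smooth muscle markers were higher in pBOO against sham (median 1.26). In that setting 5 of 11 urothelial markers were lower, and 3 of 9 fibroblast markers were higher and 1 lower. Adipocyte markers set sham 1 (-0.45) apart from sham 2 and 3 (1.82 and 1.68).

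Promoter windows of the genes were read because many of them were low on the same arrays. RefSeq windows on GRCr8, from 250 bases before to 50 after the start, were found for 74 of the 84 genes. Both strands were searched for GCGCA, any base and GCGC in a row, bound by NRF1, for CCGGAAG, bound by ETS factors such as GABP, and for AANATGGCG, bound by YY1. Matches of different motifs can share bases, and each motif was counted on its own. The NRF1 letters were in 14 of 74 windows (18.9%) against 4.26% of all 33465 windows of the same length. The ETS letters were in 24 (32.4%) against 8.75%, and the YY1 letters in 14 (18.9%) against 3.01%. At least 1 of the 3 was in 58.1% against 14.3%. The 33465 windows were not limited to the 15168 genes with a probe, from which the 74 come, so the sets are unlike. A comparison with windows of array genes alone was not made. Of 31 windows of genes lower in pBOO, 54.8% held at least 1, and of 30 windows of tested genes not lower, 60%. By complex, 20 of 35, 5 of 6, 5 of 6, 4 of 13 and 9 of 14 windows of complexes I to V held 1 or more. Complex IV windows held neither the NRF1 nor the YY1 letters.

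Shown are, for each complex with a called gene, the window of the gene that fell most in pBOO among those with a match, and that of Cox6a2, which fell most of all. The matched letters are in capitals, on whichever strand they were found, and each window is written along the gene's own strand. Ndufa12 (chr7:30658066-30658365, plus strand) holds the NRF1 letters. Uqcrc1 (chr8:118467973-118468272, plus strand) holds the NRF1 and YY1 letters, the latter reaching over the start. Cox5b (chr9:46417587-46417886, plus strand) and Atp5mk (chr1:255921998-255922297, minus strand) hold the ETS letters. Cox6a2 (chr1:192219667-192219966, minus strand) holds none of the 3, which says only that these letters are not in this window. A match is a description of the sequence and not a binding site.
Ndufa12: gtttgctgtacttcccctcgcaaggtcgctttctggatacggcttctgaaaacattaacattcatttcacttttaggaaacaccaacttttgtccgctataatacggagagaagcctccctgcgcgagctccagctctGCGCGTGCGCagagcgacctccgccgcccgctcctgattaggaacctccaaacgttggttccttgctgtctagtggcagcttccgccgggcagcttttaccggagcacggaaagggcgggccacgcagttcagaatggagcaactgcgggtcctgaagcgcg
Uqcrc1: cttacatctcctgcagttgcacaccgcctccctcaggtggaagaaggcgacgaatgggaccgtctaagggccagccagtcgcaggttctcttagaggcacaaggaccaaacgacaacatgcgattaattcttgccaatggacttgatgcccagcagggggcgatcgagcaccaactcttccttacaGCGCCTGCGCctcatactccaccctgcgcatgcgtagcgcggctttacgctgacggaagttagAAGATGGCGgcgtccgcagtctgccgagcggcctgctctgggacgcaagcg
Cox5b: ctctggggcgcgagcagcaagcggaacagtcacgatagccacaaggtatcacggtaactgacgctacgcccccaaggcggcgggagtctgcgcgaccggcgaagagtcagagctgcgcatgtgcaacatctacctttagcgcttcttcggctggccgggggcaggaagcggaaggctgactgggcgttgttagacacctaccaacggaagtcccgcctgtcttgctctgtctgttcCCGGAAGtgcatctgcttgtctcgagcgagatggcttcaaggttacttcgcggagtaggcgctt
Atp5mk: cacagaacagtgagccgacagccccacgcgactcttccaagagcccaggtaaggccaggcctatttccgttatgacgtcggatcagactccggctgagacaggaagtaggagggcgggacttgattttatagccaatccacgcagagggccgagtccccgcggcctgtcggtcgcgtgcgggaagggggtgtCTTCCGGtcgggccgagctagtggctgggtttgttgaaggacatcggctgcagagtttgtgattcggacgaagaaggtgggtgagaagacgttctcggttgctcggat
Cox6a2: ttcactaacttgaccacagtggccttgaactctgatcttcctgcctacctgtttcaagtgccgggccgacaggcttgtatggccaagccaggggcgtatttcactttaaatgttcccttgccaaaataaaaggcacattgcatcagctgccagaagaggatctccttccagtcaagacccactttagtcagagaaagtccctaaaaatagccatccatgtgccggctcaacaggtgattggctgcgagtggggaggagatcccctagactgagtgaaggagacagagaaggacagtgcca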

How the data were processed

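The 9 files hold Agilent spot intensities, 1 array each, grouped by title. Per the file headers, the authors' processed signal is an intensity already background-subtracted by Feature Extraction 11.0.1.1 and not normalized between arrays (the submitters' processing notes name 9.1). The deposited median signal and local background, also intensities, were used for the normexp alternative. The deposited spot and background marks are 0 or 1 values.

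Log2 signals of 42877 non-control spots were set relative to each array's 75th percentile, marked spots removed and spots of a probe averaged. Of 30367 probes, 22144 passed the software's background test on 3 or more arrays. RefSeq accessions gave 18005 probes 1 symbol, and the brightest usable probe stood for its gene, with at least 2 arrays per group. One limma fit (R 4.3.3, limma 3.58.1, with data.table version 1.17.8) over 9 arrays, with 6 residual and 2.78 prior degrees of freedom, gave two-sided moderated tests, Benjamini-Hochberg adjusted over 11047 genes. The number of arrays limits precision: the median SE was 0.171, and 0.149 for these genes. For a gene below background throughout 1 group, the fold is a lower bound, the brighter group's mean against the higher, on each array, of the gene's level and the lowest level well above background. The fit was tested on simulated data with independent noise per gene, few changed genes and no effect of scan. That simulation therefore says nothing about the scans.

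Genes were named by rule: per comparison and complex the 2 called genes with the largest change in each direction, 24 fixed subunits and isoforms where measured, and the most changed called gene of each pathway list. Ndufv2, Ndufs3, Ndufs4, Ndufa5, Ndufa10, Ndufaf4, Ndufaf5, Sdhd, Uqcrc2, Uqcr10, Cox6b1, Atp5f1e and Atp5mk were added outside it after their values were seen. Sdhaf2 and Cox6c-ps1 were also named after their values were seen. Alternatives covered marks, filters, scaling, background correction, probe choice, scan, replicate number and each left-out array. The values of 1 gene are not reported here. The genes, lists and alternatives were chosen with earlier results of these data known. Replicate numbers did not pair the arrays (correlations of same-numbered arrays from -0.08 to 0.18, 1 over 0.1).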

Additional observations from a re-analysis of the deposited data

How the results depend on the processing

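With 3 arrays a group, 23 alternatives were run for most results, and 2 of them, removing only spots marked themselves and taking the brightest kept probe or none, were chosen after seeing the data. In pBOO against sham (35 lower, 1 higher), quantile scaling gave 8 lower and 2 higher, normexp 23 lower, and scan 2 alone 10 lower. The higher count was 0 with no filter on dim probes, with array median scaling and within scan 2 (1 at an unadjusted p under 0.05 by limma each time). Leaving out arrays gave 18 to 40 lower and 0 to 1 higher. In tolterodine against pBOO (13 higher, 1 lower), keeping marked spots or removing only spots marked themselves gave 21 higher and 0 lower, and the brightest kept probe or none gave 0 lower (0 at an unadjusted p under 0.05 by limma). Quantile scaling gave 7 higher, 8 lower and a median of -0.048, scan as a fixed term 6 lower and as a random term 3 lower. Leaving out arrays gave 7 to 16 higher and 1 to 3 lower. In tolterodine against sham (11 lower, 1 higher), the lower count was 7 with no filter on dim probes, 5 with quantile scaling, 22 with array median scaling, 4 with normexp, 5 with only the 2 groups compared, 35 and 28 with scan as a fixed and a random term and 36 within scan 1. The higher count was 2 with quantile scaling, both scan terms, scan 1 alone and probes above background on all 9 arrays. Leaving out arrays gave 2 to 20 lower and 1 to 3 higher. The cause was not tested for any of these. With the replicate number as a block, 32 were lower and 1 higher in pBOO against sham, 11 higher and 1 lower in tolterodine against pBOO, and 7 lower and 1 higher in tolterodine against sham; the numbers did not pair the arrays. Exchanging the names of sham and pBOO, as the protocol's letters would have it, turns the first comparison to 1 lower and 35 higher (median 0.39) and swaps the others, with 11 lower and 1 higher (median -0.22) for tolterodine against pBOO and 1 lower and 13 higher (median 0.20) against sham.

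Among named genes, quantile scaling reversed Cox8a in pBOO against sham (0.16) and Cox7a2l (-0.30) and Cox8a (-0.36) in tolterodine against pBOO. The mean of all kept probes turned Ndufs4 in pBOO against sham to 0.68. Uqcrb in tolterodine against pBOO was 0.24 with marked spots kept and with only spots marked themselves removed, where its bright probe is used. Among the genes of the naming rule, other changes of call at an unchanged sign were 44 lost and 12 gained in pBOO against sham, 33 and 6 in tolterodine against pBOO, and 22 and 16 in tolterodine against sham.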

Other observations

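Genes for carriers, porins and import of the mitochondrial inner and outer membranes had 4 of 19 members higher and 6 lower in pBOO against sham (median -0.18), where 20.8% of all genes were higher and 21.7% lower, so the higher share is near that of all genes. Hspe1, a matrix chaperonin subunit, fell by 1.11 on the log2 scale (SE 0.12, adjusted p = 0.000191), and Mfn2, which fuses mitochondrial outer membranes, rose by 0.82 (SE 0.09, adjusted p = 0.000267). In tolterodine against pBOO, which uses the same pBOO arrays, Hspe1 was higher by 0.63 (SE 0.12) and Mfn2 had a log2 fold change of -0.75 (SE 0.09).

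In fatty acid oxidation, Acadl, a dehydrogenase of long-chain acyl-CoA, was the gene called lower in tolterodine against sham, at -0.82 (SE 0.17, adjusted p = 0.0123). Tfam, which packs mitochondrial DNA, was lower in the same comparison at -0.44 (SE 0.10, adjusted p = 0.0142), and Cox17 was lower at -1.08 (SE 0.19, adjusted p = 0.00471). In that comparison 6.58% of all genes were lower and 17.8% higher. Of 19 regulators of mitochondrial biogenesis, 1 was lower and 1 higher, Ppard at 0.64 (SE 0.18). Of 31 assembly factors with other symbols, 4 were lower and 2 higher, with Cox11 at 0.61 (SE 0.11). For carriers, porins and import, 2 of 19 genes were lower and 1 higher. Cycs, cytochrome c, had -0.37 (SE 0.10, adjusted p = 0.0321).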
